A study of Mus musculus with 34 samples.

Results

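The subcortical maternal complex is a protein assembly that the growing mouse oocyte stores beneath its cortex, and its transcripts were followed here through 3 stages of the early embryo. The genes described are Ooep, Nlrp5, Tle6, Khdc3, Padi6 and Zbed3, chosen by name, and all 6 were found among the 49686 gene symbols of the zygote and late 2-cell tables and among the 51734 of the blastocyst table. Ooep had drawn attention because its level differed between genotypes in opposite directions at the zygote and late 2-cell stages. The members' genotype values at those stages, and the change of the genotype difference between them, are therefore descriptions. Where a count of members past a threshold is printed for them, it stands beside the share over all genes and nothing is read from it. For Ooep the change from zygote to late 2-cell embryo within each genotype is built from the same values and is also a description. Tests are read for that change in the other 5 members and for the blastocysts.

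Each library was made from 1 mouse embryo that had been injected as a zygote with mRNA encoding CHK1, the checkpoint kinase that halts the cell cycle when DNA replication is disturbed. One set received wild-type CHK1 (WT) and the other a mutant form, R442Q, so both sets carried injected CHK1 mRNA, and embryos without injection were not analysed here. There were 5 WT and 6 R442Q zygotes and 4 WT and 5 R442Q late 2-cell embryos, all with treatment given as none, and 7 WT and 7 R442Q blastocysts, which had all been cultured with a CHK1 inhibitor at 30 nM. The zona pellucida was taken off before lysis and cDNA was made by SMART-seq2, a method that primes on the poly(A) tail. The labels give no strain, maternal age or litter, so p-values measure only the spread between single embryos, which may share a litter or an injection session. The effect of the inhibitor and that of the blastocyst stage cannot be told apart.

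Total counts were 7183632 to 11296522 per zygote and 5727956 to 8916343 per late 2-cell embryo. The blastocyst table holds only FPKM (fragments scaled by transcript length and library size), so the depth behind it is unknown. Chek1, the injected gene, stood at 4593 to 8653 CPM (counts scaled to a common library total) in WT zygotes and 5597 to 7171 in R442Q zygotes, at 396 to 675 and 259 to 720 in late 2-cell embryos, and at 7.05 to 38.3 and 13.3 to 23.6 FPKM in blastocysts. These counts do not tell the 2 forms of CHK1 from each other or from the embryo's own transcript. All 6 zygote and oocyte markers, all 8 late 2-cell markers and all 9 blastocyst markers had a mean of at least 1 FPKM at the stage they mark. Markers of cumulus cells, the cells that surround the egg, summed to at most 3.37 FPKM in zygotes. In late 2-cell embryos they summed to 43.0 to 73.4 FPKM in WT and 17.5 to 70.5 in R442Q embryos. There 2 of 8 had a mean of at least 1 FPKM, Amhr2 (56.6 in WT and 25.2 in R442Q) and Tnfaip6 (2.52 and 7.36), and Fshr and Inhba were listed at 0. In blastocysts the cumulus cell markers summed to 0 to 71.5 FPKM, with Ptx3, Fshr and Inhba at 0. Most of this was again Amhr2, at 18.4 FPKM in WT and 10.9 in R442Q blastocysts on average. The part of cumulus RNA in the results below was not tested.

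In the complex OOEP (also called FLOPED) and KHDC3 (FILIA) carry KH domains, a fold known for RNA binding, NLRP5 (MATER) is a large leucine-rich repeat protein, and TLE6 belongs to the Groucho family of corepressors without acting as a typical one. PADI6 is an egg-specific relative of the peptidylarginine deiminases that is needed for the cytoplasmic lattices, fibrous arrays that store proteins of the egg, and ZBED3 is a zinc finger protein reported to bind the complex. Eggs of females that lack Nlrp5, Ooep, Tle6 or Padi6 are fertilised but their embryos stop at early cleavage. The transcripts are made during oocyte growth under factors such as FIGLA and NOBOX and are degraded after fertilisation.

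The upstream sequences of Ooep and Nlrp5 are shown because these were the 2 members whose genotype difference changed most between the stages, and because they were the only 2 of the 6 with a homeobox element in the 250 bases before a RefSeq start. The element was searched as TAATTG or TAATTA on both strands, the sequences come from RefSeq on build GRCm38.p6, and capitals mark the match. For Ooep only the bases before the outermost annotated start are printed.
Ooep, chr9:78378726-78378838, minus strand: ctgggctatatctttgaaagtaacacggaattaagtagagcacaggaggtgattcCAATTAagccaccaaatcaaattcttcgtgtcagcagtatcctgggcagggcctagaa
Nlrp5, chr7:23385639-23385888, plus strand: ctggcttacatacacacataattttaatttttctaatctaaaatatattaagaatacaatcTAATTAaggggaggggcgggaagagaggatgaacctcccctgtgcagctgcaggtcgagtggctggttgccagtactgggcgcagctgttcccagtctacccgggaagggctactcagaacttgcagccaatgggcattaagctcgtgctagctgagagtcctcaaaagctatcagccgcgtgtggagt
The first base of the match lies at position -195 from the RefSeq start of Ooep and at -189 from that of Nlrp5. All 6 members matched the RefSeq table, with 10 starts in all, and 2 of the 10 windows held the element, against 11.3% of the 32851 windows of all genes. An E-box, CANNTG, stood in all 10 windows and in 66.2% of all windows. These matches describe letters only.

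The members lie on 5 chromosomes (GRCm38, GENCODE M21). Ooep (ENSMUSG00000032346.7) spans chr9:78376109-78378725 on the minus strand with 3 exons, and Khdc3 (ENSMUSG00000092622.8) spans chr9:73101836-73104438 on the plus strand. Nlrp5 (ENSMUSG00000015721.18) spans chr7:23385889-23441922 on the plus strand, and Tle6 (ENSMUSG00000034758.12) chr10:81590904-81601073 on the minus strand. Padi6 (ENSMUSG00000040935.12) spans chr4:140727355-140742643 on the minus strand, and Zbed3 (ENSMUSG00000041995.8) chr13:95323612-95337841 on the plus strand. The exons of Khdc3 overlap those of Gm20509 on the same strand, and 34.1% of its 50-base stretches also occur in that gene, so reads could be divided between them. Gm20509 itself reached at most 2.22 FPKM in zygotes and late 2-cell embryos and 7.04 in blastocysts. For Nlrp5 6.55% of such stretches occur in other genes, Nlrp5-ps among them, and for the other 4 members at most 1.39%. No member overlaps an exon of the opposite strand.

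In zygotes the members were abundant but far from equal. On the length-corrected FPKM scale WT zygotes held Zbed3 at 9372 ± 308 (SD, n = 5), Ooep at 973 ± 187, Tle6 at 438 ± 63.9, Padi6 at 259 ± 53.5, Nlrp5 at 227 ± 26.5 and Khdc3 at 42.8 ± 20.6. Zbed3 was the symbol with rank 5 of the 24335 listed above 0, Ooep had rank 83, Tle6 213, Padi6 374, Nlrp5 426 and Khdc3 2369. In this order only Padi6 (195 to 324 FPKM) and Nlrp5 (190 to 254) overlapped as neighbours. Zbed3 thus made up 82.9% ± 1.26 (SD, n = 5) of the summed FPKM of the 6 genes, and Ooep 8.57% ± 1.34. R442Q zygotes kept Zbed3 at rank 5, with 11328 ± 1159 FPKM (SD, n = 6) and 91.3% ± 3.06 of the sum, while Ooep stood at rank 178 with 503 ± 99.8 FPKM.

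**Figure D1:**
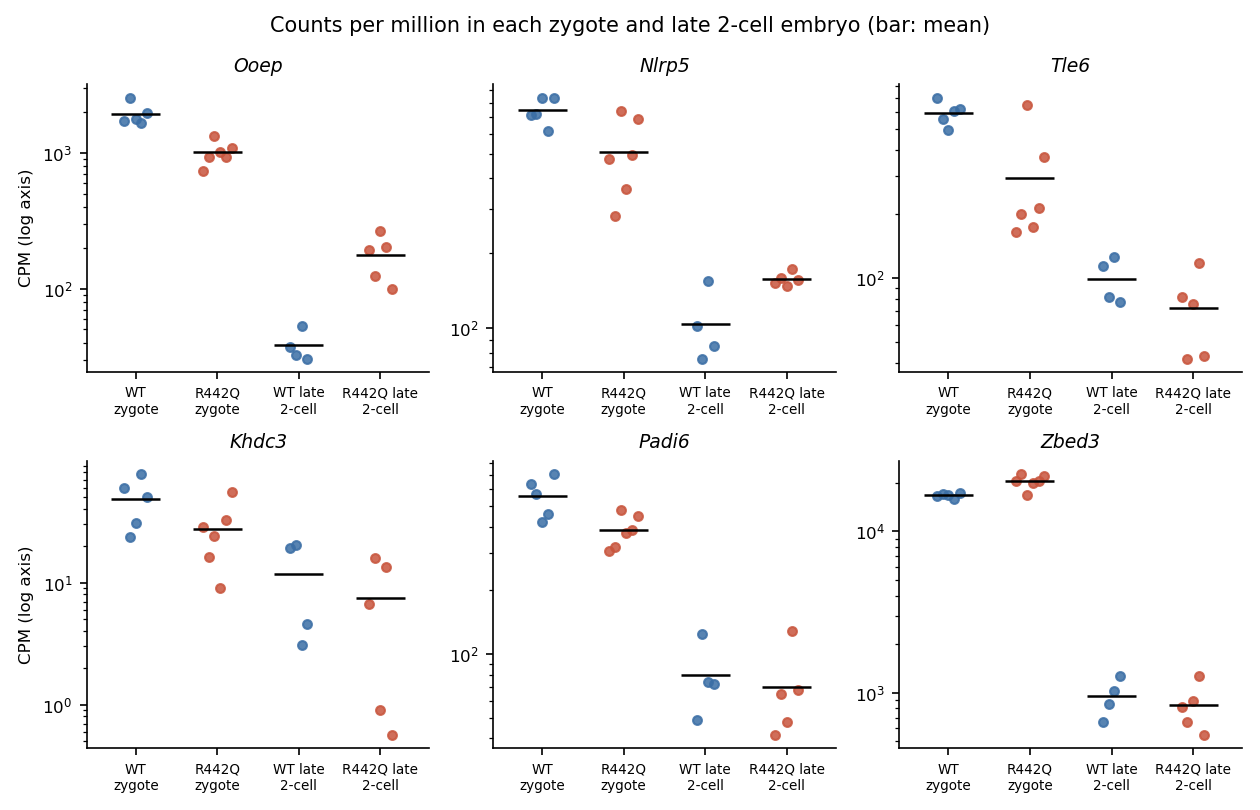
CPM (log axis) of each member in every zygote and late 2-cell embryo, with 1 point per embryo and a bar at the mean; blue points are WT and red points R442Q. Ooep lies between 1661 and 2549 CPM in WT zygotes and between 30.4 and 52.9 in WT late 2-cell embryos, and the R442Q embryos lie below the WT range at the first stage and above it at the second.

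Ooep was lower in R442Q than in WT zygotes. The 5 WT zygotes held 1707, 2549, 1769, 1661 and 1964 CPM, and the 6 R442Q zygotes 729, 936, 1328, 1012, 938 and 1089 CPM. Every R442Q zygote lay below every WT zygote. Mean CPM was 1.92-fold lower, and the edgeR log2 fold change was -0.82 ± 0.12 (SE). Over all genes tested 6.84% had R442Q zygotes wholly below WT ones. CPM is a share of the counts of a library, so less of a transcript and more of all others cannot be told apart on this scale.

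Nlrp5 and Tle6 were also lower on average, with overlap. For Nlrp5, whose product forms the core of the complex with OOEP and TLE6, the WT zygotes held 718, 723, 839, 619 and 840 CPM and the R442Q zygotes 476, 282, 742, 361, 495 and 690. Replicates 3 and 6 of R442Q lay inside the WT range and the other 4 below it, with a log2 fold change of -0.44 ± 0.19. Tle6 stood at 703, 559, 492, 605 and 618 CPM in WT zygotes and at 164, 200, 646, 174, 214 and 371 in R442Q zygotes. Here 5 of 6 R442Q zygotes were below all WT zygotes and replicate 3 lay within them, with a log2 fold change of -0.91 ± 0.27. Without R442Q replicate 3 the values were -0.57 ± 0.18 for Nlrp5 and -1.28 ± 0.18 for Tle6.

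Padi6 and Khdc3 followed the same sign. Padi6 stood at 635, 573, 422, 461 and 708 CPM in WT zygotes and at 308, 320, 482, 372, 384 and 448 in R442Q zygotes, with 4 of 6 below the WT range and a log2 fold change of -0.42 ± 0.14. Khdc3 was the scarcest member at 59.7, 23.9, 30.6, 77.7 and 50.4 CPM against 28.7, 16.2, 23.9, 9.07, 32.9 and 55.1, and the groups overlapped widely (-0.70 ± 0.36).

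Zbed3 went the other way. It stood at 16486, 17082, 16888, 15929 and 17300 CPM in WT zygotes and at 20412, 22646, 16765, 20073, 20395 and 21976 in R442Q zygotes. All R442Q zygotes but replicate 3 were above every WT zygote, and the log2 fold change was 0.41 ± 0.08. Replicate 3 was thus the R442Q zygote with the highest Ooep, Nlrp5, Tle6 and Padi6 and the lowest Zbed3, and its total count of 9469891 lay within the range of its group.

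As a description of the contrast used in the choice, the edgeR adjusted p was under 0.05 for 2 members lower in R442Q zygotes, Ooep and Tle6, and for 1 higher, Zbed3, where 6.92% of the 12420 genes tested were lower and 6.3% higher by that threshold (13.2% in all). The count of 3 was 5 without R442Q replicate 3, 6 with no filter on low counts and 0 when both early stages were fitted in 1 model. Tle6 missed the threshold in DESeq2 (adjusted p 0.0727) and in 8 of 11 edgeR fits that left out an embryo. The members' median log2 fold change was -0.57, beside 0.0061 over all genes tested. Among the 6 partners of the complex and of the lattices, Nlrp14 alone passed, at -1.12 ± 0.20, and the list's median was -0.038. The median was -0.25 for the 4 KH-domain relatives of Ooep and Khdc3 and -0.33 for the 13 other maternal transcripts, of which 9 had a negative value. Of these 13, 3 passed as lower, the zona pellucida genes Zp3 (-1.35 ± 0.17) and Zp1 (-0.71 ± 0.18) and the kinase Mos (-1.52 ± 0.35), and 2 as higher, among them Dppa3 (0.44 ± 0.08), whose product guards the methylation of the maternal genome. The zygote and oocyte markers summed to 4518 to 6193 FPKM in WT and 3186 to 4568 in R442Q zygotes, most of it Oosp1, at 3426 ± 543 (SD, n = 5) and 2641 ± 355 (n = 6). The 8 late 2-cell markers summed to 108 to 210 and 88.2 to 245 FPKM, and the 9 blastocyst markers to 60.9 to 161 and 115 to 195, so both sums overlapped. Some late 2-cell markers were higher in all R442Q zygotes than in any WT zygote, from low WT values. These were Zscan4c (0.07 to 1.4 FPKM in WT, 1.91 to 18.03 in R442Q), Zscan4d (0.88 to 3.57 and 4.47 to 29.9), Zscan4f (0 to 0.8 and 1.4 to 44.2) and Usp17la (0.25 to 1.13 and 1.8 to 6.38). Zfp352 and Usp17lc were higher on average, with overlap. Tcstv1 and Tcstv3, the most abundant of the list, were lower on average in R442Q zygotes, with overlap (128 and 84.7 FPKM, 39.1 and 25.6). Among the blastocyst markers Krt18 was wholly higher in R442Q zygotes, at 0 to 1.29 and 1.73 to 6.21 FPKM. The share of all genes wholly higher in R442Q zygotes is not given here. The part of these markers in the members' zygote values was not tested.

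By the late 2-cell stage the transcripts of Nlrp5, Tle6, Khdc3, Padi6 and Zbed3 had fallen in both genotypes, as measured in 1 edgeR model of the 4 groups in which all 6 members passed the filter on low counts. The counts of the 2 stages come from separate tables, so stage and table cannot be told apart. CPM is a share of the counts of a library. A percentage of the zygote mean below is thus a relative level, not an amount of transcript per embryo. In WT embryos 6 of 6, Ooep included as a description, were called lower at an adjusted p under 0.05, beside 25% of the 16199 genes tested, and in each of the 6 all late 2-cell embryos lay below all zygotes, as for 24.6% of genes. In R442Q embryos 6 of 6 were called lower, beside 29.8%, and 5 of 6 did not overlap, beside 21.5%. The members' median log2 change was -2.89 in WT and -2.43 in R442Q embryos, beside 0.34 and 0.22 over all genes.

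Ooep, whose values at both stages entered the choice, is described without a test. The 4 WT late 2-cell embryos held 37.4, 32.4, 52.9 and 30.4 CPM, 1.98% of the mean zygote level, and the log2 change was -5.74 ± 0.30. In rank of mean FPKM Ooep went from 83 to 4822, behind Zbed3, Tle6, Padi6 and Nlrp5. In R442Q embryos, at 192, 124, 265, 203 and 99.8 CPM, the mean was 17.6% of the mean zygote level, with a log2 change of -2.70 ± 0.23. In both genotypes all late 2-cell embryos lay below all zygotes.

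Zbed3 had the largest fall of the other 5 members in both genotypes. The WT late 2-cell embryos held 656, 851, 1018 and 1268 CPM and the R442Q ones 818, 661, 881, 1267 and 544, which is 5.66% and 4.09% of the mean zygote levels. The log2 change was -4.21 ± 0.26 in WT and -4.80 ± 0.24 in R442Q embryos, with edgeR adjusted p-values of 6.2e-12 and 2.1e-13. Zbed3 was still the most abundant member, at rank 152 and 306.

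Nlrp5, Padi6 and Tle6 fell less than Zbed3. Nlrp5 stood at 103, 75.6, 155 and 84.7 CPM in WT late 2-cell embryos (log2 change -2.93 ± 0.27, edgeR adjusted p 2.7e-09) and at 152, 159, 148, 173 and 156 in R442Q ones (-1.87 ± 0.23, 2.0e-07). Mean CPM was 14.0% of the zygote mean in WT and 31.0% in R442Q embryos. Padi6 stood at 49.0, 125, 74.1 and 72.1 CPM in WT (-2.86 ± 0.33, edgeR adjusted p 9.2e-08) and at 41.4, 65.1, 47.8, 128 and 67.6 in R442Q (-2.64 ± 0.29, 3.9e-08), or 14.3% and 18.2% of the zygote mean. Tle6 stood at 113, 81.0, 125 and 77.0 CPM in WT (-2.67 ± 0.38, edgeR adjusted p 2.1e-06) and at 81.6, 41.7, 75.7, 117 and 43.0 in R442Q (-2.21 ± 0.33, 4.1e-06), or 16.7% and 24.4%. On the FPKM scale Padi6 (21.7 to 62.7 in WT) overlapped both Nlrp5 (22.2 to 44.5) and Tle6 (59.4 to 88.9), which did not overlap each other in WT embryos, and all 3 overlapped in R442Q embryos.

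Khdc3 had the smallest log2 change of the 6 in WT embryos and the largest SE in both genotypes, while in R442Q embryos Nlrp5 fell least. WT late 2-cell embryos held 19.2, 20.2, 3.07 and 4.59 CPM (-2.13 ± 0.75, edgeR adjusted p 0.0176) and R442Q ones 6.73, 15.9, 0.905, 13.4 and 0.561 (-2.05 ± 0.68, 0.0110). The lowest of these values rests on 5 counts. In 1 of the 20 fits that left out an embryo the WT fall of Khdc3 had an edgeR adjusted p of 0.0559.

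**Figure D2:**
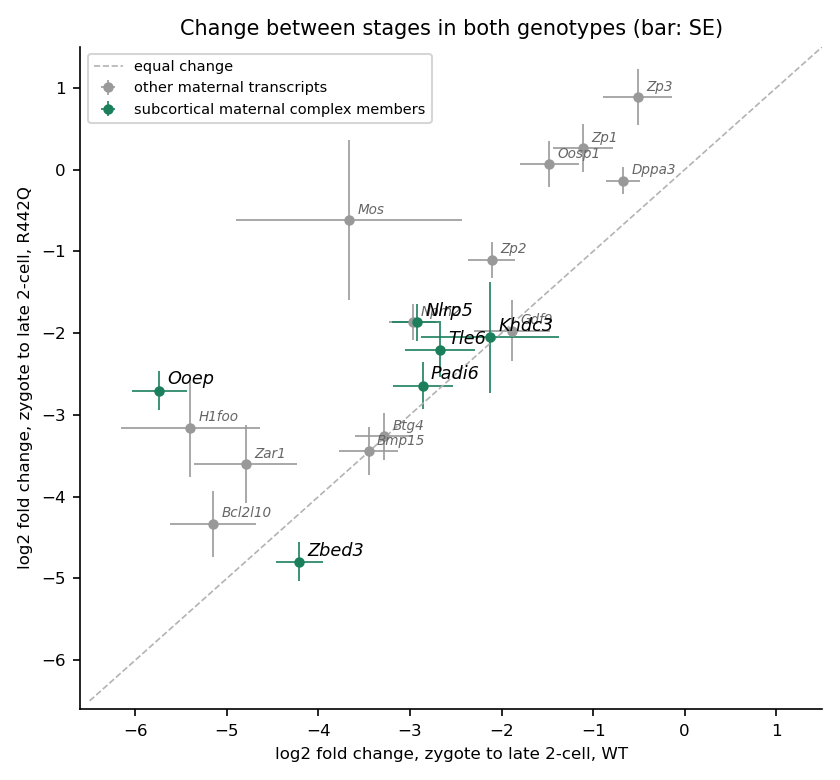
Log2 fold change from zygote to late 2-cell embryo in WT (x axis) and R442Q (y axis) for the 6 members (green) and 13 other maternal transcripts (grey), with bars of 1 SE and a dashed line of equal change. Ooep lies at -5.74 and -2.70, well above the line, and Zbed3 at -4.21 and -4.80, below it.

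Other maternal genes fell too. In WT embryos all 6 partners fell (median log2 change -2.37), as did 12 of 13 other maternal transcripts (median -2.97). The largest falls of the latter list were those of the oocyte linker histone H1foo, -5.40 ± 0.76, and of Bcl2l10, -5.15 ± 0.47, and the smallest changes were Zp3 at -0.51 ± 0.38, which did not pass, and Dppa3 at -0.68 ± 0.19. In R442Q embryos 5 of 6 partners and 8 of 13 other maternal transcripts fell, with medians of -1.12 and -1.87, while Zp3 rose by 0.89 ± 0.34. Of the oocyte transcription factors Nobox and Lhx8 fell, with log2 changes of -4.23 ± 0.26 and -4.04 ± 0.38 in WT and -3.72 ± 0.23 and -3.86 ± 0.34 in R442Q embryos. Taf4b rose, by 3.06 ± 0.43 in WT embryos, where 36.2% of all genes tested were called higher, and by 1.18 ± 0.37 in R442Q embryos, where 35.3% were. No count is given for this list, since Sohlh1 passed the filter on low counts only through late 2-cell embryos and Figla only through zygotes.

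At the late 2-cell stage the genotype values of Ooep were reversed relative to the zygote. All 5 R442Q embryos (99.8 to 265 CPM) lay above all 4 WT embryos (30.4 to 52.9 CPM), mean CPM was 4.62-fold higher, and the log2 fold change was 2.29 ± 0.35. For comparison 3.67% of the 13883 genes tested had R442Q embryos wholly above WT ones. Nlrp5 had the same sign at 0.70 ± 0.29. Its R442Q embryos spanned only 148 to 173 CPM, and 3 of 5 were above the highest WT embryo, replicate 3 at 155 CPM.

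The other 4 members were near equal or lower. The log2 fold changes were -0.36 ± 0.35 for Tle6, -0.53 ± 0.93 for Khdc3, -0.12 ± 0.39 for Padi6 and -0.10 ± 0.32 for Zbed3, and in each the embryos of the 2 genotypes overlapped. With each library's trend on GC content and length taken out, a setting chosen after seeing the data, Tle6, Padi6 and Zbed3 turned to 0.077, 0.26 and 0.22. Of the 6, only Ooep had an edgeR adjusted p under 0.05 here, in the contrast used to choose it, where 1.22% of genes tested were higher by that threshold (4.18% in both directions). No gene of the partner list or of the other maternal transcripts passed, although 12 of these 13 had a positive value with a median of 0.78, beside 0.071 over all genes.

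The genotype difference thus changed by 3.04 ± 0.33 log2 units between the stages for Ooep and by 1.06 ± 0.33 for Nlrp5, and by 0.46 ± 0.47 for Tle6, 0.073 ± 0.97 for Khdc3, 0.22 ± 0.40 for Padi6 and -0.59 ± 0.29 for Zbed3. This interaction is the pattern for which Ooep was chosen. The edgeR adjusted p was under 0.05 for Ooep and Nlrp5, in a table where 3.07% of genes were so in that direction (10.1% in both), and Nlrp5 missed it in 5 of 20 fits that left out an embryo (without WT zygote replicate 1, 3 or 5 or WT late 2-cell replicate 2 or 4). Of the other lists, genes that passed in the same direction were the KH-domain gene Dppa5a at 1.53 ± 0.49, Nlrp14 at 1.75 ± 0.39 and, of the other maternal transcripts, Oosp1 at 1.55 ± 0.42, Zp1 at 1.38 ± 0.44, Npm2 at 1.11 ± 0.32 and Zp2 at 1.01 ± 0.32. Those that passed in the other direction were Khdc1b at -1.13 ± 0.33 and Taf4b at -1.89 ± 0.56. Tle3 is left out of these, since it passed the filter only through late 2-cell embryos and was at 0 in 4 of 5 WT zygotes.

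At this stage the sum of the zygote and oocyte markers and that of the late 2-cell markers overlapped between the genotypes. Both reached higher values in R442Q embryos, unlike the sum of the cumulus cell markers, while single markers differed in direction. The 6 zygote and oocyte markers summed to 1210 to 3106 FPKM in WT and to 1631 to 6879 in R442Q late 2-cell embryos. Most of this sum was Oosp1, at 1513 ± 720 (SD, n = 4) and 3721 ± 1884 (n = 5), while Bmp15 stood at 95.7 and 109, Zp3 at 73.2 and 78.4 and Gdf9 at 118 and 81.1 FPKM on average. Mos stood at 2.15 and 6.49 on average, and these markers all overlapped. Zp2 alone did not, at 9.37 to 28.3 FPKM in WT and 29.4 to 31.4 in R442Q embryos, beside 3.67% of all genes tested that lay wholly higher. The 8 late 2-cell markers summed to 137 to 1654 FPKM in WT and 799 to 3072 in R442Q embryos. The FPKM of a library summed to 712234 to 742246 in WT and 814376 to 976830 in R442Q embryos. Their part in the Ooep and Nlrp5 values was not tested.

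**Figure D3:**
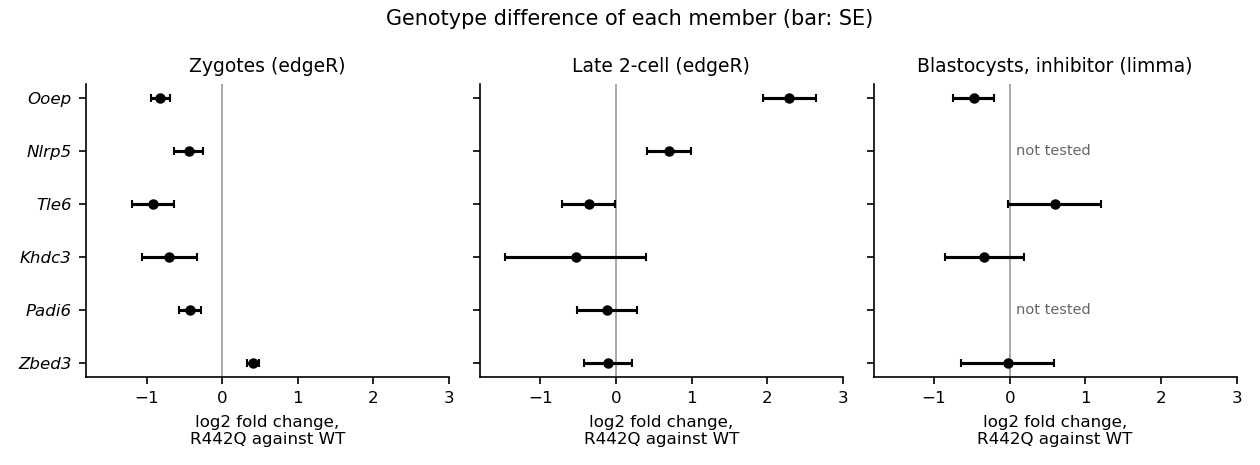
Log2 fold change of R442Q against WT for each member at 3 stages, with bars of 1 SE, from edgeR for zygotes and late 2-cell embryos and from limma for blastocysts. Ooep moves from -0.82 in zygotes to 2.29 in late 2-cell embryos and -0.48 in blastocysts, while Nlrp5 and Padi6 were too low in blastocysts to be tested.

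The pattern of Ooep over the 20 zygotes and late 2-cell embryos was compared with that of 16198 other genes by Pearson correlation of log2 CPM, a description of points that share stage, genotype and depth. The 5 highest values were Gm3924 (0.984), Gdpd1 (0.983), the F-box gene Fbxw27 (0.983), Vdac3 (0.980) and Wdr76 (0.978). Nlrp5 had rank 55 (0.957), Zbed3 579, Padi6 898, Tle6 1396 and Khdc3 4322. For Nlrp5 the 5 highest were the F-box genes Fbxw14 (0.988), Fbxw24 (0.987) and Fbxw28 (0.985), then Neil3 (0.972) and Pecr (0.970), and Ooep had rank 24. The Fbxw genes belong to a family of near-identical copies, so their single values are uncertain. With the 4 group means taken out, Ooep was most like Siae (0.888), Atic (0.868), Oosp1 (0.863), Nceh1 (0.858) and Efna5 (0.854), and Nlrp5 most like Fbxw14 (0.843), Fbxw24 (0.822), Smad2 (0.782), Nlrp2 (0.778) and Fbxw28 (0.770). Among the members Tle6 was then the nearest to both, at 0.675 for Ooep (rank 208) and 0.588 for Nlrp5 (rank 64).

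In blastocysts Khdc3, the scarcest member in zygotes, was the most abundant of the 6, and Zbed3 was no longer first. The blastocyst table was normalised apart from the others, so its FPKM are set beside the earlier ones without a test, and stage and table cannot be told apart. Khdc3 stood at 1822, 1628, 386, 212, 1167, 788 and 754 FPKM in WT blastocysts and at 1400, 1443, 1349, 295, 496, 373 and 219 in R442Q blastocysts. All 14 blastocysts were above the highest of the 20 earlier embryos, a WT zygote at 70.2 FPKM. With each column rescaled to a common sum the lowest blastocyst was at 182 and the highest earlier embryo at 104. Khdc3 ranked 184 in WT and 249 in R442Q blastocysts by mean FPKM, and it made up 90.7% ± 7.29 and 90.6% ± 5.97 (SD, n = 7 each) of the summed FPKM of the 6 genes. A blastocyst holds several cell types, and more cells with a transcript and more of it per cell cannot be told apart here.

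Ooep was the next most abundant. It stood at 34.7, 30.1, 36.7, 66.2, 47.6, 43.9 and 64.4 FPKM in WT and at 46.1, 46.8, 17.5, 22.4, 33.3, 32.7 and 34.3 FPKM in R442Q blastocysts. The WT late 2-cell embryos stood at 14.9 to 25.7 FPKM and the R442Q ones at 49.7 to 135. With columns rescaled to a common sum WT late 2-cell embryos (20.1 to 36.1) and WT blastocysts (29.3 to 58.5) overlapped, while R442Q late 2-cell embryos (55.4 to 166) lay above R442Q blastocysts (16.3 to 43.3). Dppa5a, a KH-domain gene 7932 bases from Ooep, reached 13244 to 35375 FPKM in WT and 10025 to 20833 in R442Q blastocysts.

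The other 4 members were low or listed at 0. Tle6 ranged from 0 to 21.8 FPKM (median 16.5) in WT, with replicate 4 listed at 0, and from 8.28 to 35.0 (median 13.4) in R442Q blastocysts. Zbed3, which had led in zygotes, ranged from 0 to 6.83 (median 2.16) and from 0.15 to 9.26 (median 0.86). Padi6 was at most 1.76 and 4.06, and Nlrp5 was listed at 0 in 5 of 7 blastocysts of each genotype and was at most 0.11. The summed level of the zygote and oocyte markers was at most 6.45 FPKM in WT and 0.47 in R442Q blastocysts.

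**Figure D4:**
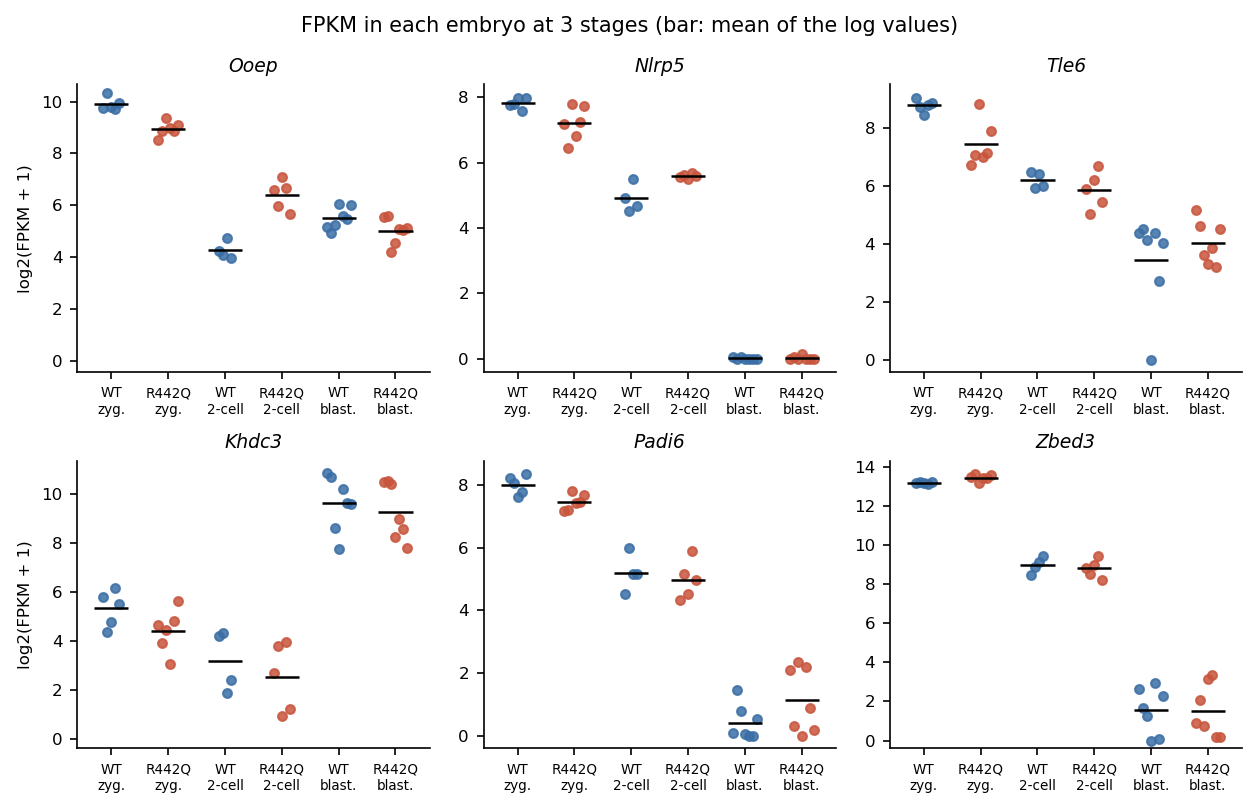
Log2(FPKM + 1) of each member in every embryo of the 3 stages, with 1 point per embryo and a bar at the mean of the log values; blue is WT and red R442Q, and blastocysts come from a table normalised separately. Khdc3 is the member with its highest values in blastocysts (212 to 1822 FPKM), while Nlrp5 is at most 0.11 FPKM there.

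No member passed the test between genotypes in blastocysts. Of the 6, 4 passed the filter of 1 FPKM in at least 7 of 14 blastocysts, and limma on log2(FPKM + 1) called 0 of the 4, beside 0.00885% of the 11297 genes tested, and 0 in the 5 other settings run. The difference was -0.48 ± 0.27 (SE) for Ooep (limma adjusted p 0.753), with 2 of 7 R442Q blastocysts below all WT ones. It was -0.34 ± 0.52 for Khdc3 (adjusted p 0.928), 0.60 ± 0.61 for Tle6 (0.889) and -0.027 ± 0.62 for Zbed3 (0.997), and the sign of Zbed3 turned to 0.038 with columns scaled by TMM and to 0.12 with a pseudocount of 0.1. At an unadjusted p under 0.05, 836 genes passed and none of the 4 members was among them. The SEs of Khdc3, Tle6 and Zbed3 exceed 0.5 log2 units, and the Ooep difference did not pass although it exceeded its SE of 0.27. With 7 embryos per genotype a difference had to be well above its SE to pass in any of the 4 members. Smaller differences were not detectable.

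**Figure D5:**
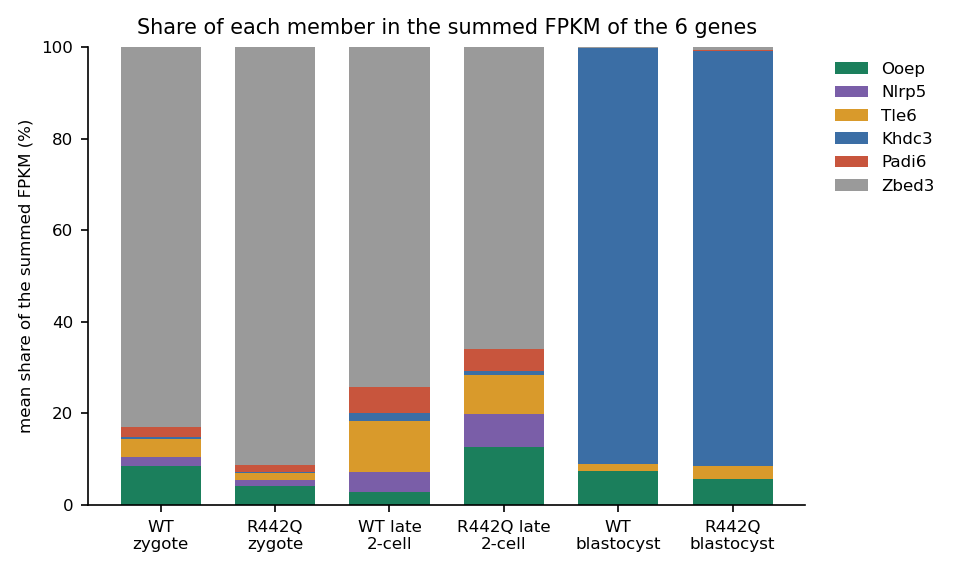
Mean share (%) of each member in the summed FPKM of the 6 genes in each of the 6 groups, as stacked bars that add to 100. Zbed3 holds 82.9% and 91.3% in zygotes and 74.2% and 65.9% in late 2-cell embryos (WT, then R442Q), and Khdc3 holds 90.7% and 90.6% in blastocysts.

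The make-up of the 6 transcripts differed between the stages. Their summed FPKM was 11312 ± 476 (SD, n = 5) in WT and 12385 ± 996 (n = 6) in R442Q zygotes and 689 ± 129 (n = 4) and 703 ± 215 (n = 5) in late 2-cell embryos. In blastocysts it was 1029 ± 604 and 852 ± 578 (n = 7 each). Within that sum Ooep held 2.78% ± 0.80 in WT and 12.6% ± 3.13 in R442Q late 2-cell embryos, with no overlap between the highest WT share of 3.44% and the lowest R442Q share of 9.87%.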

How the data were processed

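RNA of single embryos was read by SMART-seq2, and the study's groups and replicate numbers come from the sample titles. The authors deposited estimated counts per gene symbol for zygotes and late 2-cell embryos (made with RSEM on mm10, per the submitters' processing notes) and FPKM, normalised by the authors for length and library size, for all 3 stages. The aligner, the annotation and the use of strand are not given in the sources used here. Priming on poly(A) tails means that a change of tail length can alter capture.

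The expected counts were rounded to whole numbers and tested with edgeR 4.0.16 (filterByExpr with a minimum count of 10, TMM, quasi-likelihood test), per stage for genotype and in 1 model of 4 groups for stage and interaction. Blastocyst log2(FPKM + 1) was tested with limma 3.58.1 where at least 7 of 14 blastocysts reached 1 FPKM. P-values were adjusted by Benjamini-Hochberg over all genes tested, with a threshold of 0.05. Scripts were tested on simulated data. The alternatives were DESeq2 1.42.0, RLE size factors, no filter, both stages in 1 model, limma on FPKM, a replicate block, other pseudocounts and scalings, and leaving out each embryo. No precision limit is given for FPKM, since depth is unknown there.

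All 6 members are named throughout. Of other lists, mainly genes past the threshold are named, at most 4 per list and comparison, and not every such gene is named in the stage comparison. Named too are the 2 largest and 2 smallest stage changes of the other maternal transcripts and the 5 genes most like Ooep and Nlrp5. The members and lists were chosen with earlier results of these data known.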

Additional observations from a re-analysis of the deposited data

Results flagged for a closer look

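The genotype difference of Ooep changed by 3.04 log2 units, and that of Nlrp5 by 1.06, between zygotes and late 2-cell embryos in the edgeR interaction. Ooep was among the genes chosen for this pattern, so these values are a description. Padi6 in WT blastocyst replicate 2, at 1.76 FPKM, stood far from the other 6 (0 to 0.72). Nlrp5 in R442Q blastocyst replicate 4, at 0.11 FPKM, stood far from the other 6 (0 to 0.04). These were 2 of 36 groups of embryos examined, and chance gives a sample this far out in about 1 group in 20 where values spread evenly around their mean. Both groups lie near 0 with some embryos listed at 0, so that rate need not hold for them and nothing is read from either.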

How the results depend on the processing

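The number of members past the threshold in the zygote genotype contrast, 3, was 0 with both early stages in 1 model, 6 with no filter on low counts and 2 to 5 with each embryo left out (5 without R442Q replicate 3). In the interaction it was 2, and 1 to 2 with each embryo left out. It was 5 to 6 for the WT stage change, and 6, 1 and 0 in every such fit of the R442Q stage change, the late 2-cell and the blastocyst contrast. In the joint zygote fit the adjusted p was 0.0609 for Ooep, 0.190 for Tle6 and 0.358 for Zbed3, and Tle6 also missed the threshold in DESeq2 (0.0727) and in 8 of 11 fits that left out an embryo (up to 0.0850). The cause was not tested. In both stage changes all 6 members were called lower in each of the 5 other settings.

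Signs turned for values that had not passed the threshold. At the late 2-cell stage, with the trend on GC content and length removed, which was chosen after seeing the data, Padi6 was 0.26, Tle6 0.077 and Zbed3 0.22, and Zbed3 was 0.019 with the replicate block. In blastocysts Zbed3 was 0.038 with TMM scaling and 0.12 with a pseudocount of 0.1. Leaving out each embryo gave -0.20 to 0.67 for Khdc3 in the interaction, -0.46 to 0.20 for Padi6 and -0.30 to 0.088 for Zbed3 at the late 2-cell stage, and -0.33 to 0.21 for Zbed3 in blastocysts. Ooep ranged from 2.95 to 3.34 in the interaction over those 20 fits.

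Rescaling each FPKM column to a common sum moved 14 of the members' group means by more than 1 SD, all in zygotes and late 2-cell embryos and all upward, for example Zbed3 in WT zygotes from 9372 to 13825 and Ooep from 973 to 1434.

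Correlations of embryos with the same replicate number in the sample titles ran from -0.168 to 0.207, so these numbers gave no clear pairing. The submitters' own embryo numbers differ from the title numbers in zygotes and in part of the late 2-cell embryos. Pairing by those numbers was not tested. With a block on the title numbers, which may group unrelated embryos, Nlrp5 in zygotes was -0.60 with an edgeR adjusted p of 0.0214. The number of genes called over the whole table then went from 1639 to 1085 in the interaction and from 580 to 58 at the late 2-cell stage.

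Over all genes, the zygote contrast called 1643 and 270 in the joint model, the late 2-cell contrast 580 against 2507 in the joint model, 1780 with DESeq2, 889 with no filter and 120 with the trend removed, and the interaction 1639 against 2526 with DESeq2 and 954 with the trend removed. RLE size factors moved the interaction's median over all genes from -0.16 to -0.0060 and its split of higher and lower calls from 497 and 1142 to 707 and 917. Limma on FPKM moved the zygote split from 783 and 860 to 411 and 1231. Blastocyst depth is unknown, and Khdc3 at the late 2-cell stage rests on as few as 5 counts.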

Other observations

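The relatives of the members moved in both directions. Between zygote and late 2-cell stage Dppa5a, a KH-domain relative of Ooep, rose by 2.32 ± 0.37 log2 units in WT and by 3.85 ± 0.35 in R442Q embryos (edgeR), while Khdc1a and Khdc1b fell in both genotypes (-1.39 ± 0.29 and -1.34 ± 0.26 for Khdc1a, -0.65 ± 0.25 and -1.78 ± 0.23 for Khdc1b). Khdc1c fell in WT embryos (-1.35 ± 0.31) and did not pass in R442Q embryos (-0.11 ± 0.27). Of the Groucho relatives of Tle6, Tle1 rose by 1.61 ± 0.47 and 1.34 ± 0.43 and Tle4 by 0.78 ± 0.31 and 0.77 ± 0.28, while Aes was at -0.51 ± 0.76 in WT, which did not pass, and fell in R442Q embryos (-1.76 ± 0.71). Of the deiminase relatives of Padi6, Padi2 did not pass in either genotype (1.05 ± 0.75 and -0.15 ± 0.68). Among the BED-finger relatives of Zbed3, Zbed5 rose by 2.44 ± 0.44 in WT and 2.81 ± 0.40 in R442Q embryos. Zbed4 rose in WT embryos (0.76 ± 0.25) and did not pass in R442Q embryos (-0.12 ± 0.23). Tle3, Padi3, Padi4 and Zbed6 passed the filter on low counts only through late 2-cell embryos, so the filter itself favours a rise and they are not counted. Over all genes tested 36.2% were called higher and 25% lower in WT embryos and 35.3% and 29.8% in R442Q embryos.

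The ratio of count to FPKM of a gene, scaled by the library total, gives the effective length that this scaling implies. For Ooep, with 1 annotated transcript, it was 1972 to 1992 bases in WT and 1988 to 2007 in R442Q zygotes, and 2028 to 2061 and 1964 to 2012 in late 2-cell embryos, so it shifted without annotated isoforms. For Tle6, with 14 annotated transcripts, it was 1342 to 1416 bases (mean 1362 ± 30.9, SD, n = 5) in WT and 1379 to 1578 (1499 ± 78.5, n = 6) in R442Q zygotes, and 1232 to 1487 and 1022 to 1383 in late 2-cell embryos. No test was made of these differences, and their part in the Tle6 values was not tested.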
